A study of Mus musculus with 3 samples.

Results

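Abcb1a, Abcb1b, Abcg2, Abcc1, Abcc2, Abcc3, Abcc4 and Abcc5 are 8 mouse genes for ATP-binding cassette (ABC) transporters that carry drugs and drug conjugates out of cells. Their DNA copy number was examined in 3 neurosphere lines, which grow as floating spheres of tumour cells and came from mouse gliomas resistant to inhibitors of the receptor CSF-1R. The genes were picked by name and not by value, as 8 of the 21138 gene names on the array. Of the 170305 probes measured, 78 carry one of the 8 names, and 650 lie in the windows that reach 500 kb to each side of the first and last probe of a transporter. The question was whether any transporter is amplified in the resistant lines.

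Efflux transporters of this kind span the plasma membrane and use the energy of ATP to pump compounds outward. P-glycoprotein, which mice make from Abcb1a and Abcb1b and humans from a single gene, and the breast cancer resistance protein Abcg2 are known for keeping many small molecules, kinase inhibitors among them, out of the brain and out of tumour cells. The Abcc proteins, known as multidrug resistance-associated proteins, export organic anions and conjugates with glutathione, glucuronide or sulphate. Amplification of the DNA around the Abcb1 genes is a classic change in cell lines selected with cytotoxic drugs, and neighbours such as Abcb4 and Sri can be gained with them.

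Each line was hybridised to its own 2-colour array, with DNA of the line labelled with Cy5 and mouse liver DNA labelled with Cy3. The 3 lines form 1 group, taken at passages 2 to 3. Line 1 and its liver carry one animal number, and lines 2 and 3 share another animal number and the same liver label. Strain, genotype, sex, the name and dose of the inhibitor and the number of cells are not given in the sources used here. No group of untreated or sensitive tumours was analysed here, so liver was the only DNA against which the lines were set. The assay reads DNA alone, so neither the cell type of the lines nor the level of any transporter RNA or protein could be checked.

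Values are log2 of Cy5 over Cy3, centred on the autosomal median of each array, so that a positive value is more DNA in the line than in liver. With 2 copies in liver, 3 copies in every cell of a line would give 0.585, 4 copies would give 1, and 1 copy would give -1, while a gain in part of the cells would give less. No region of known copy number was available to calibrate this scale. Dyes were not swapped and a single slide carried the 3 arrays, so effects of dye or slide and of the group cannot be told apart. Line 1 was the least precise array, with a spread of 0.384 between adjacent probes, against 0.232 and 0.237 in lines 2 and 3. Of all probes, 99.0% to 99.4% were well above background for line DNA and 96.3% to 99.1% for liver DNA, and 0 spots were saturated. The p-values below rest on the spread between these 3 lines, which limma moderates with the spread of all genes. For windows the standard errors came out nearly equal, at 0.0228 for Abcb1a (SD 0.014) and 0.0230 for Abcc1 (SD 0.045). These window p-values thus depend little on how far the lines differ at 1 locus.

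The array reads each transporter through probes of 55 to 60 bases, each sequence on the array once, about 1 probe every 10878 bp, and 9 of the 78 are shown because the results below turn on them. Their letters are given as the deposited scanner files hold them, with positions on mm9, and the strand is not stated there. The first pair comes from Abcb1a and holds its highest and its lowest probe by the mean over lines. The next 3 are neighbouring probes of Abcc2 and the last 4 are neighbouring probes of Abcc5.
Abcb1a, highest, chr5:8690476-8690535: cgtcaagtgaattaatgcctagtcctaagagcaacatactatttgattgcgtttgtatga
Abcb1a, lowest, chr5:8726377-8726436: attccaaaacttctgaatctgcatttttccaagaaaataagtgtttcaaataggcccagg
Abcc2, chr19:43873508-43873567: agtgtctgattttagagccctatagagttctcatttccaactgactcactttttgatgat
Abcc2, chr19:43880726-43880784: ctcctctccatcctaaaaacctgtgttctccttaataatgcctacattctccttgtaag
Abcc2, chr19:43890890-43890949: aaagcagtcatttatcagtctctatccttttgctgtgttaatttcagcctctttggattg
Abcc5, chr16:20338122-20338181: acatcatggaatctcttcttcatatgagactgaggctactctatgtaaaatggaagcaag
Abcc5, chr16:20348404-20348463: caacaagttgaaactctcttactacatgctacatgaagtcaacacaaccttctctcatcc
Abcc5, chr16:20366532-20366591: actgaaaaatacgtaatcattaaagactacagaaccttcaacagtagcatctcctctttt
Abcc5, chr16:20373445-20373504: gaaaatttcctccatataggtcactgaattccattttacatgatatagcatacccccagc

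No transporter reached the level of a gained copy in any line. Over the windows, the 24 values of 8 transporters in 3 lines ran from -0.093 to 0.079, and 0 of 8 transporters had a window at least 0.2 from 0 in any line, against 1.04% of 21123 windows on the array. Read as copies, with 2 in liver, the windows held 1.88 to 2.11 copies. The highest upper bound of a 95% interval was 2.25 copies (0.17 on the log2 scale, against 0.585 for 3 copies in every cell), and the lowest lower bound was 1.81 copies. These intervals come from blocks of 10 neighbouring probes and cover probe error within 1 array only. They apply to a change over the whole window of 68 to 106 probes, of which 4 to 23 carry the transporter's name. A gain of the gene alone would move its window by much less than 0.585. Means of own probes, over 4 to 23 probes, were looser. They reached at most 0.29 (Abcc3 in line 2). The upper bounds of 0.75 for Abcc2 in line 1 and 0.72 for Abcc3 in line 2 lay above 0.585. A gain of the gene alone was thus not settled in those 2 cases, by own probes or by window. The autosomal median was taken as the zero of each array, so a change shared by most of the genome would not show.

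**Figure D1:**
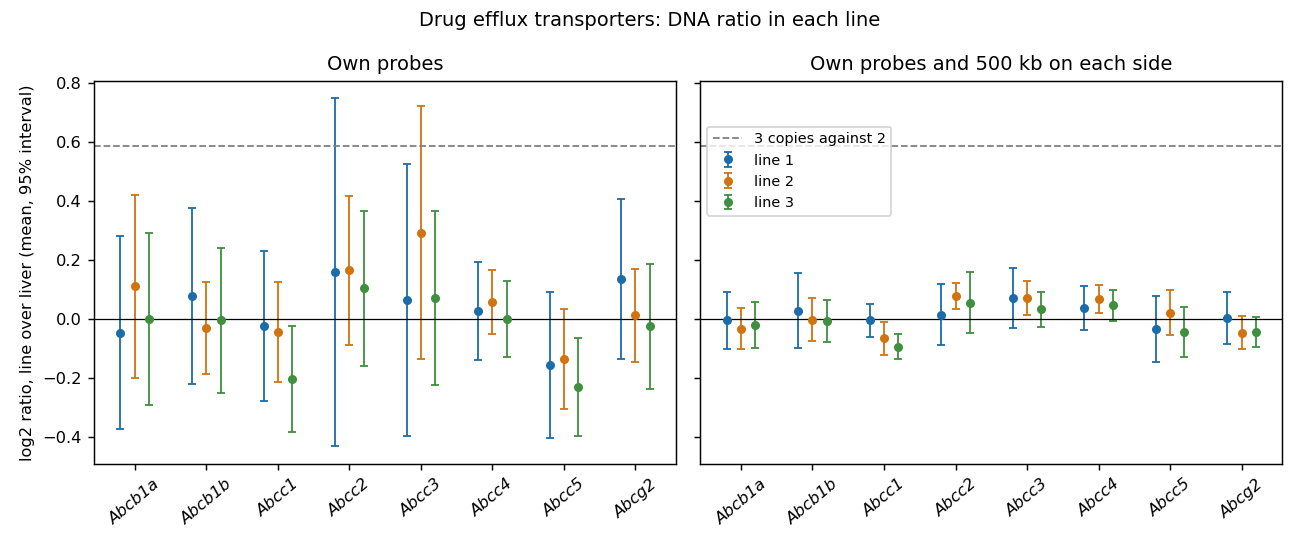
Log2 ratio of line over liver for each transporter, as the mean of its own probes (left) and of its window with 500 kb on each side (right), with 1 point per line and 95% intervals over probes or blocks of probes. The windows lie between -0.093 and 0.079 in all lines, below the dashed line at 0.585 that marks 3 copies against 2, while means of own probes scatter more widely, with wider intervals.

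Small shifts that all lines share are common on these arrays, and a test against 0 is read against that background. With limma's moderated test over the 3 lines and Benjamini-Hochberg adjustment over all genes with at least 3 probes of their own, 2 of 8 transporters passed an adjusted p of 0.05 by the mean of their own probes, Abcc2 above 0 and Abcc5 below 0. That is 25% of the transporters, where 24.1% of 9462 genes passed, 14.2% above and 9.97% below 0. By their windows, 2 of 8 passed as well, Abcc3 above and Abcc1 below 0, where 44.0% of 21123 windows passed, 33.7% above and 10.4% below 0. The shares among transporters were therefore near or under those of the array. At an unadjusted p under 0.05, limma took 3 of 8 transporters by own probes (39.9% of all genes) and 4 of 8 by windows (51.6%). By size alone, Abcc1, Abcc3 and Abcc5 had a mean of own probes at least 0.2 from 0 in some line, where 33.7% of all genes did. The split among all genes moved with the scaling. Of all gene means past the threshold, 58.7% were above 0, against 43.5% in the authors' value table and 47.2% after correction for local gene number. For windows the share above 0 was 76.5%, against 54.3% and 51.9% under those settings.

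The medians of the transporters stayed close to those of all genes. The 8 means of own probes had a median of 0.025, against 0.011 over all genes tested. The 8 windows had a median of -0.0057, against 0.030 over all windows, and they ranked between the 10.1 percentile (Abcc1) and the 69.8 percentile (Abcc3) of all windows. All 8 thus lay well inside the range of the array's windows, which ran from -0.23 to 0.24 by the mean over lines.

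**Figure D2:**
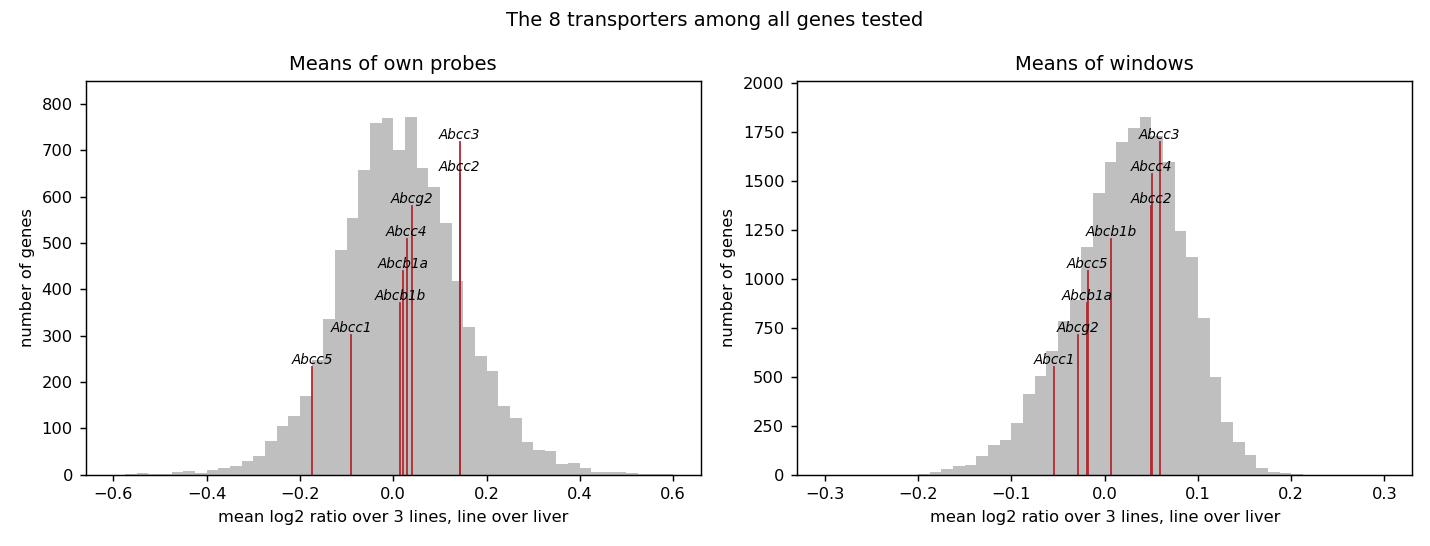
Number of genes (vertical axis) by mean log2 ratio over 3 lines, for means of own probes (left, 9462 genes) and of windows (right, 21123 genes), with a red stem at each transporter whose height has no meaning. All 8 transporters sit inside the bulk of both distributions, from -0.17 to 0.14 by own probes and from -0.054 to 0.059 by windows.

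Abcb1a and Abcb1b, the P-glycoprotein pair, showed no gain by window or by own probes. Abcb1a lies on chr5:8662167-8745897 and has 9 probes, and its window averaged -0.0048, -0.032 and -0.020 in lines 1, 2 and 3. Abcb1b, next to it on chr5:8801147-8860739 with 6 probes, had window values of 0.029, -0.0026 and -0.0052. The lines overlapped in sign for Abcb1b and lay just under 0 for Abcb1a. Neither window passed the test (limma adjusted p = 0.515 for Abcb1a and 0.830 for Abcb1b). The windows are not independent, since 90 of their 114 probes are the same.

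The probes of the 2 genes themselves gave the same picture with more scatter. Abcb1a averaged -0.046, 0.11 and -0.0011 in lines 1, 2 and 3, a mean of 0.021 ± 0.081 (SD, n = 3; limma adjusted p = 0.747). Abcb1b averaged 0.078, -0.031 and -0.0040, a mean of 0.015 ± 0.057 (SD, n = 3; limma adjusted p = 0.817). In neither gene did the 3 lines fall on one side of 0. Within Abcb1a the 2 probes printed above, 36.0 kb from end to end, stood on opposite sides of 0 in every line. The high one gave 0.46, 0.69 and 0.66, and the low one gave -0.71, -0.49 and -0.38. Probes of 1 gene thus differed by more than a gained copy would add, and the mean over several probes is the unit that can be read. The related genes were read by different sequences: the longest run of bases shared by a probe of Abcb1a and a probe of Abcb1b was 9, and 10 for Abcb1a and Abcb4.

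Windows around the neighbours of the pair lay near 0 too. They overlap the windows of the pair and mostly each other, so they are not separate readings. Of 8 neighbours, 7 had the 3 probes the test asks for. By own probes 0 passed limma (24.1% of all genes), and by window 0 of 8 did (44.0% of all windows). At an unadjusted p under 0.05, 3 of 7 did so by own probes (39.9% of all genes) and 1 of 8 by window (51.6% of all windows). Their windows lay between -0.060 and 0.055 in any line. Abcb4, which encodes the phosphatidylcholine exporter of bile, averaged -0.015, -0.16 and -0.20 over 7 probes (limma adjusted p = 0.0905). Rundc3b and Adam22, with 13 and 26 probes, averaged 0.051 ± 0.081 and -0.027 ± 0.043 (SD, n = 3). Sri, for the calcium-binding protein sorcin that is often gained with Abcb1 genes in drug-selected cells, has only 2 probes, at means of 0.68, 0.27 and 0.34, and its window averaged -0.0083, -0.058 and -0.047. Dbf4, for the activator of the Cdc7 kinase, had -0.36 in line 1 over 3 probes, and -0.082 and -0.043 in lines 2 and 3. Slc25a40, Crot and Dmtf1 had means over lines of 0.027, 0.0063 and -0.092 over 3, 5 and 5 probes.

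**Figure D3:**
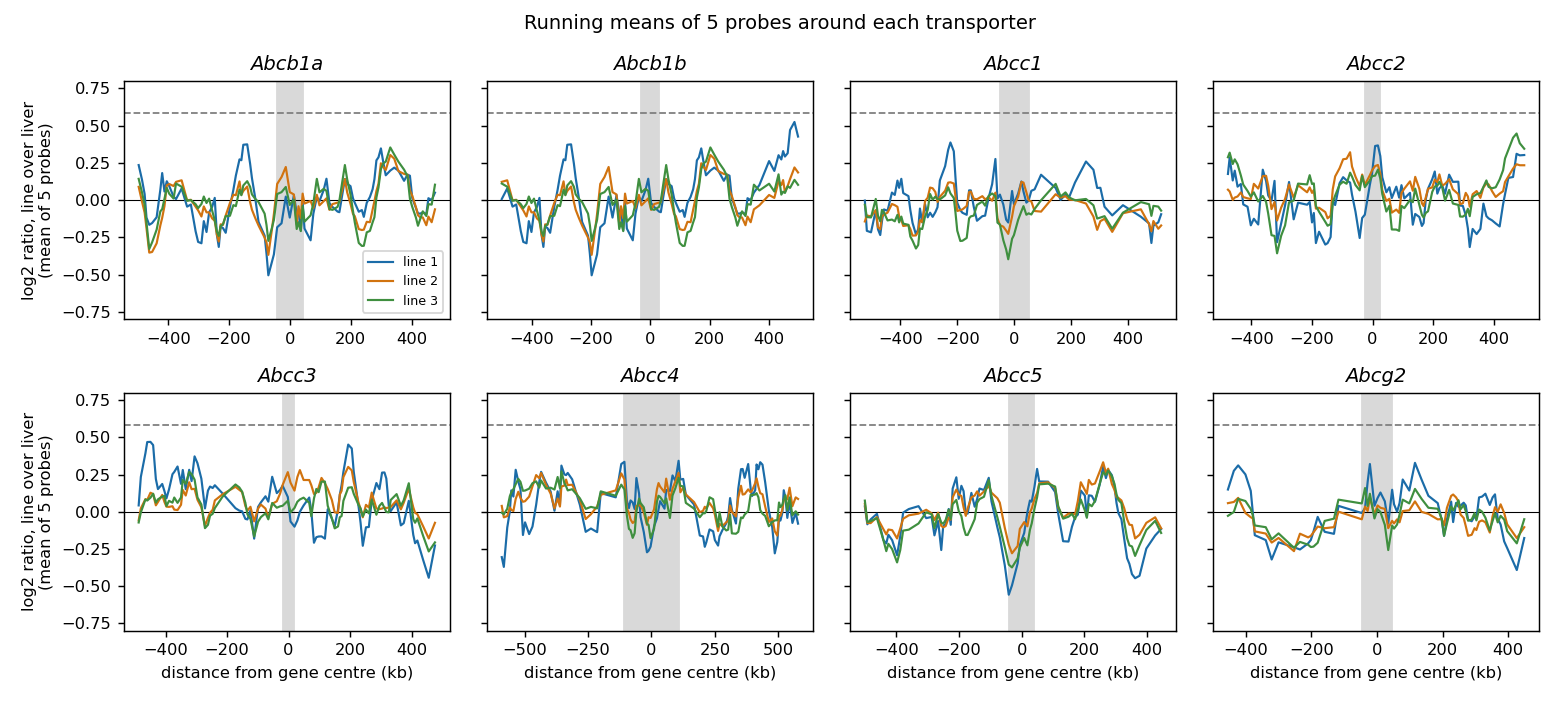
Running means of 5 neighbouring probes (log2 ratio of line over liver) against the distance from the centre of each transporter in kb, 1 colour per line, with the stretch between the first and last own probe shaded and a dashed line at 0.585 for 3 copies against 2. The curves of the 3 lines often move up and down together around 0, and the highest run is 0.52, at the edge of the Abcb1b window in line 1.

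Abcg2, the breast cancer resistance protein, showed no gain. It lies on chr6:58547062-58639741 with 10 probes, and its window gave 0.0024, -0.046 and -0.042 in lines 1, 2 and 3 (limma adjusted p = 0.310). With windows of 1 Mb on each side the mean was -0.061 and passed below 0 (limma adjusted p = 0.00875). Its own probes averaged 0.14, 0.012 and -0.025, a mean of 0.041 ± 0.084 (SD, n = 3; limma adjusted p = 0.526). Only line 1 stood above the others by own probes, and 1 probe there reached 0.88. That probe has the lowest GC content of the 10 that carry the name Abcg2, 26.7% of its bases, and a log2 signal of 7.23 averaged over channels and arrays, where all probes average 9.99. It is the only one of the 78 transporter probes that was not well above background in both channels on all arrays. By own probes the sign of Abcg2 was not settled, since its mean was -0.099 with normexp background correction and -0.044 with loess normalisation.

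Abcc1, for the multidrug resistance-associated protein MRP1, which exports glutathione conjugates, leaned to the low side. It lies on chr16:14368691-14469614 with 11 probes. Its window gave -0.0045, -0.065 and -0.093 in lines 1, 2 and 3 (mean -0.054, limma adjusted p = 0.0465), below 0 in 3 of 3 lines and lower in lines 2 and 3. Its own probes gave -0.023, -0.044 and -0.20, a mean of -0.091 ± 0.099 (SD, n = 3; limma adjusted p = 0.193). The window call was lost without line 2 (limma adjusted p = 0.193), without line 3 (0.399), with lines 2 and 3 averaged as 1 animal (0.210), with bright probes only (0.0897), with medians over probes (0.281) and with windows of 250 kb on each side, where the mean was -0.0014. The same call held in the authors' value table (mean -0.097, limma adjusted p = 0.00433), under normexp (-0.077, 0.00834) and under loess (-0.088, 0.00249). It also held after correction for local gene number (limma adjusted p = 0.0133), with windows of 1 Mb (0.0160) and when line 1 was dropped (0.00994). Own probes passed below 0 only in the value table (mean -0.16, limma adjusted p = 0.0375) and when line 1 was dropped (-0.12, 0.0296). The mean of lines 2 and 3 minus line 1 was -0.075 for the window (95% interval over blocks of probes -0.13 to -0.018). Of 8 such intervals for windows it was the one that did not hold 0. The share over all windows is not given here, so this difference cannot be called particular to Abcc1. In copies, the lowest of the 3 windows stood at 1.88 (1.82 to 1.93).

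Abcc2, for the canalicular exporter MRP2 that carries bilirubin glucuronides into bile, was the one transporter past the test above 0 by own probes. It lies on chr19:43856820-43908048, and its 6 probes averaged 0.16, 0.16 and 0.10 in lines 1, 2 and 3. The mean was 0.14 ± 0.033 (SD, n = 3; limma adjusted p = 0.0364), with each of the lines above 0, and it ranked at the 84.6 percentile of all genes tested. The 3 probes printed above carried it. They gave 0.44, 0.46 and 0.74 in line 1, 0.40, 0.35 and 0.37 in line 2, and 0.39, 0.23 and 0.31 in line 3, while the first probe of the gene gave -0.87 in line 1. The stretch they cover is 17.4 kb long.

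Its surroundings were lower. The window of Abcc2 averaged 0.014, 0.079 and 0.056 (limma adjusted p = 0.0677), and the focal difference, own probes minus the other probes of the window, was 0.15, 0.091 and 0.051 (mean 0.099, limma adjusted p = 0.102). The gene mean no longer passed in the authors' value table (limma adjusted p = 0.0616), with normexp (0.0536), loess (0.0595) or gene number correction (0.0968), without line 2 (0.206), without line 3 (0.0912) or with lines 2 and 3 averaged (0.126), and it stayed between 0.096 and 0.16 in these. The highest upper bound of its 3 windows was 2.23 copies.

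Abcc3, for the basolateral exporter MRP3 of liver and gut, had the fewest probes, 4 on chr11:94211686-94250374. They averaged 0.064, 0.29 and 0.071, a mean of 0.14 ± 0.13 (SD, n = 3; limma adjusted p = 0.0850). Line 2 stood apart, with all 4 probes above 0 and the highest at 0.58, and the 95% interval over its probes ran from -0.14 to 0.72. This was the highest value of any transporter in any line by own probes. Its window of 95 probes was level between the lines, with 0.071, 0.073 and 0.033 (mean 0.059, limma adjusted p = 0.0293). That window call was lost when any 1 line was left out (limma adjusted p = 0.0978 without line 1, 0.146 without line 2 and 0.0653 without line 3) and in the authors' value table, where the mean was 0.017. It was also lost after correction for local gene number (mean 0.015, limma adjusted p = 0.536), under loess (mean 0.044), with medians over probes (limma adjusted p = 0.128), with windows of 250 kb (0.0747) and with lines 2 and 3 averaged as 1 animal (0.0560). A mean of 0.059 lies 0.029 above the median of all windows.

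Abcc4, for MRP4, which exports cyclic nucleotides and nucleoside analogues, was the best covered transporter, with 23 probes on chr14:118891260-119104641. Those probes averaged 0.027, 0.058 and 0.00080 in lines 1, 2 and 3, a mean of 0.028 ± 0.029 (SD, n = 3; limma adjusted p = 0.617). Its window gave 0.036, 0.068 and 0.046 (limma adjusted p = 0.0628). That window passed above 0 under normexp (limma adjusted p = 0.0299) and with bright probes only (0.0296), but averaged -0.0058 with windows of 1 Mb. The 3 lines lay on the same side of 0 and close together in both measures, although the mean of own probes was -0.019 in the authors' value table. In line 2, the line with the highest value, the 95% interval over own probes ran from -0.051 to 0.17. One of its probes, on chr14:118915313-118915372, was the only transporter probe at or past -1, with -1.01 in line 1 and -0.55 and -0.66 in lines 2 and 3. Its neighbours on both sides were above 0 in all lines, at 0.40, 0.086 and 0.026 before it and 0.54, 0.14 and 0.030 after it.

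Abcc5, for MRP5, another exporter of cyclic nucleotides, was the one transporter past the test below 0 by own probes. It lies on chr16:20338122-20420223, and its 9 probes averaged -0.16, -0.14 and -0.23 in lines 1, 2 and 3. The mean was -0.17 ± 0.048 (SD, n = 3; limma adjusted p = 0.0213), below 0 in 3 of 3 lines. Its window averaged -0.033, 0.021 and -0.043 (limma adjusted p = 0.534). The focal difference was -0.14, -0.18 and -0.21 (mean -0.17, limma adjusted p = 0.0210), which made Abcc5 the 1 of 8 transporters past the focal test, where 23.9% of 9458 genes passed, 10.1% above and 13.8% below 0. At an unadjusted p under 0.05, limma took 2 transporters by the focal difference (40.1% of all genes), and 2 were at least 0.2 from 0 in some line (32.5%). The largest focal difference in any line was that of Abcc3 in line 2, at 0.23. Abcc3 also passed the focal test, above 0, without line 1 (mean 0.13, limma adjusted p = 0.0167), where 40.6% of all genes passed.

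The low values of Abcc5 came from the low-coordinate end of the gene. The 4 neighbouring probes printed above, which span 35.4 kb, were below 0 in all lines. Their values were -0.44, -0.63, -0.34 and -0.38 in line 1, -0.35, -0.31, -0.16 and -0.41 in line 2, and -0.31, -0.56, -0.082 and -0.50 in line 3. The other 5 probes of the gene had means over lines between -0.18 and 0.15. A loss of 1 of 2 copies in every cell would give -1, and none of the 4 reached that in any line. Both calls for Abcc5 were lost without line 2 (limma adjusted p = 0.0775 for the gene and 0.107 for the focal difference), without line 3 (0.121 and 0.0947) and with lines 2 and 3 averaged as 1 animal (0.0910 and 0.0685), with means that stayed between -0.19 and -0.15. In line 3, a segment boundary fell near the end of the gene, between the segment of -0.070 that ends at 20411394 and the one of 0.022 that starts at 20420164.

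**Figure D4:**
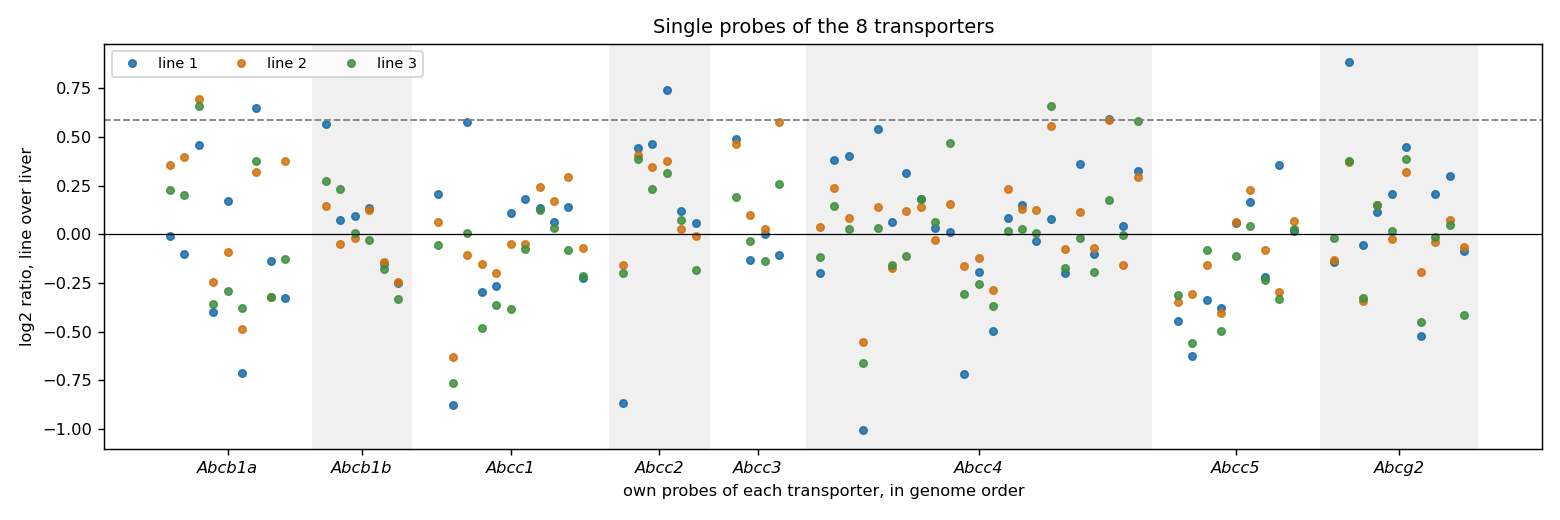
Log2 ratio of line over liver for each of the 78 own probes, in genome order within each transporter, 1 point per line, with a dashed line at 0.585 for 3 copies against 2. Probes scatter on both sides of 0 within every gene, and the 3 lines often sit together at a probe, as at the 3 raised probes of Abcc2 and the 4 lowered probes at the low-coordinate end of Abcc5.

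Segmentation put no transporter in a called segment. Each chromosome in each line was split by penalised least squares, with a call at an absolute mean of at least 0.2. That put 0 of 8 transporters in a called segment, where 0% of the 21138 named genes lay in one. At this setting no segment of the array was called in any line. The count therefore cannot tell whether a gain over only the 4 to 23 own probes of a transporter was present. Whether a gain of that size would be called was not tested. The segments that hold them had means between -0.081 (Abcg2 in line 2) and 0.067 (Abcc3 in line 3), over at least 1321 probes. With a lower penalty of 2 times log(n) and segments of at least 5 probes, those means ran from -0.087 to 0.079, and 0 transporters were called. At that setting 5 of 84, 19 of 356 and 107 of 488 segments were called in lines 1, 2 and 3. The count also stayed at 0 when the call was set at 0.1. The share of all genes in called segments is not given here for these 2 settings, so neither count has a background to be read against.

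Runs of 5 neighbouring probes show what a change smaller than the window would leave. The highest run in any transporter window was 0.52 in line 1 (Abcb1b), 0.33 in line 2 (Abcc5) and 0.45 in line 3 (Abcc2). Of all windows on the array, 18.1%, 36.6% and 14.2% held a run at least as high in lines 1, 2 and 3, and the median window had a highest run of 0.42, 0.30 and 0.32. The runs of Abcb1b in line 1 and of Abcc2 in line 3 lay at the far edges of their windows and not over the genes. The lowest runs were -0.56 in line 1 (Abcc5), -0.37 in line 2 (Abcb1a and Abcb1b) and -0.40 in line 3 (Abcc1). Of all windows, 6.51%, 3.55% and 6.98% held one as low. The run in line 3 lay over own probes of Abcc1, and that in line 2 directly before the first probe of Abcb1a. By single probes, 0 of the 78 transporter probes reached 1, the level of 4 copies against 2, in any line, against 0.931% of all probes.

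The deviations of single transporter probes were largely shared by the arrays. Across the 78 probes, r was 0.681 between lines 1 and 2 and 0.714 between lines 1 and 3, which have different animal numbers, and over all 170293 probes with a value on each array it was 0.694 and 0.640. These probes share the array design, the dyes and the slide, and they are not replicates. The ratio also moved with brightness, the mean log2 signal of a probe over both channels. For the 78 probes, r between ratio and brightness was -0.457, -0.461 and -0.516 in lines 1, 2 and 3, close to the -0.444, -0.475 and -0.475 of all probes. After loess normalisation it was 0.055, -0.026 and -0.13. By that normalisation Abcc2 had a gene mean of 0.12 and no longer passed, while Abcc5 passed. The part of brightness in any single transporter's value was not tested. Probe GC did not set the transporters apart, with a median of 36.7% for their probes and for all probes, and correction for it moved 0 of the calls.

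**Figure D5:**
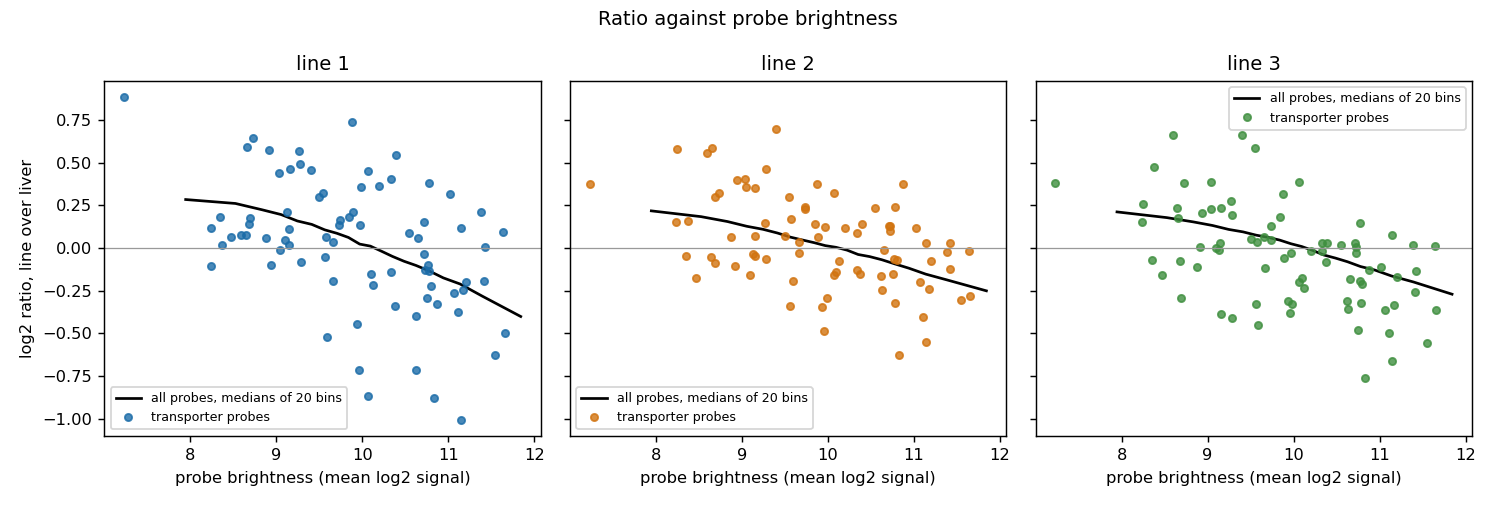
Log2 ratio of line over liver (vertical axis) against probe brightness, the mean log2 signal over both channels (horizontal axis), for the 78 transporter probes as points and for all probes as the medians of 20 bins of equal size, in each line. Dim probes tend to lie above 0 and bright probes below it in all 3 lines, with r of -0.457, -0.461 and -0.516 over the transporter probes.

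Other transporter and carrier genes were read the same way. Of 43 other ABC genes on the array, 31 had enough probes, and 3 passed above and 6 below 0 by own probes, 29.0% together, with a median of -0.0019 (limma, 24.1% of all genes). Abcb9, a lysosomal peptide transporter, was the highest, with 0.38, 0.50 and 0.53 over 3 probes (mean 0.47 ± 0.081, SD, n = 3; limma adjusted p = 0.00311) and a window of 0.15, 0.15 and 0.11. Abcb5 and Abcb11, the bile salt export pump, passed above 0 at means of 0.24 and 0.18. Abca14, Abca15, Abca1, Abca3 and Abca9 passed below 0, with means from -0.25 to -0.15, as did 1 more Abca gene. Abca1 is the cholesterol exporter that loads high density lipoprotein, and Abca3 the lipid transporter of lung surfactant. Windows of these 43 genes lay between -0.10 and 0.16 in any line, with 13 past the test above and 2 below 0 (limma, 44.0% of all windows).

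Of 12 tested uptake carriers and regulators of efflux genes, 0 passed above and 4 below 0 by own probes, 33.3% of the 12, with a median of -0.056 (limma, 24.1% of all genes, 9.97% below 0). Among them were Ahr, the receptor for aromatic hydrocarbons (mean -0.28), Rxra, a partner of nuclear receptors (-0.20), and Mvp, the major vault protein (-0.17). Windows around these 3 genes averaged -0.035, -0.011 and 0.086, and that of Mvp passed above 0 (limma adjusted p = 0.00151). Of the 15 windows of this list, 6 passed above and 0 below 0, 40% in all (44.0% of all windows, 33.7% above 0). No window of either list was 0.2 or more from 0 in any line.

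Lines 2 and 3, which share an animal number, differed little from line 1 around the transporters. The difference of their mean window from that of line 1 ran from -0.075 (Abcc1) to 0.053 (Abcc2). A step of 0.585 would be 1 added copy of the whole window. By own probes the difference was widest for Abcg2, with -0.14 (95% interval -0.29 to 0.0029), and for Abcc3, with 0.12 (-0.36 to 0.60), and all 8 such intervals held 0. With 2 animal numbers, this difference has no replicate on the side of line 1.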

How the data were processed

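The authors ran Agilent Feature Extraction 10.7.3.1, which per the file headers subtracted background from each spot intensity, detrended the signals and normalised the dyes linearly. The deposited scanner output states each ratio as log10 of red (Cy5) over green (Cy3). A value table deposited beside it also holds log10 ratios, with column medians of 0.000435, -0.00146 and -0.00271 in lines 1, 2 and 3. Its columns correlated at 0.867, 0.844 and 0.884 with the scanner ratios of the same array, so its scale and direction are known, while its centring and further correction are not given in the sources used here.

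From the deposited processed intensities, log2 of line over liver was computed for spots that are neither controls (6575 of 180880) nor marked as outliers (160 to 179 per array), averaged per probe and centred on the autosomal median. A gene name of the array's design stands beside 66.9% of probes. Coordinates are mm9, and no annotation of exons, introns or untranslated regions was used here. Each gene had 3 measures. They were the mean of its own probes (at least 3), the mean of its window (500 kb on each side, at least 20 probes) and the focal difference of own probes from the rest of the window. Each was tested against 0 over the 3 lines with limma 3.58.1 (R 4.3.3; lmFit and eBayes, 2-sided, Benjamini-Hochberg over all genes, adjusted p of 0.05). All 8 transporters passed the filter of each measure. The liver DNA is on the same array, so the ratio leaves no separate spread for liver. Lines 2 and 3 were counted as separate samples. Intervals are 95% t intervals over probes (own probes) or blocks of 10 probes (windows). Segments came from penalised least squares (10 or more probes each, penalty 10 times log(n)). Scripts ran in Python 3.11.15 with numba 0.67.0, scipy 1.17.1, pandas 2.3.3 and numpy 2.4.6. The test and the segmentation were tested on simulated data.

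The members, the lists and the tests were chosen with earlier results of these data known. The rule named the 8 transporters and 8 neighbours of the Abcb1 genes whatever their value, and, of the lists of 43 other ABC genes and of 16 uptake carriers and regulators (15 on the array), up to 8 genes per list past limma by own probes, plus any with a window at or past 0.2. The values of 1 gene that the rule takes are not reported here. Alternatives were the authors' value table, normexp with an offset of 50, loess, bright probes only, correction for local gene number or probe GC, no centring, other probe minima, medians, windows and segment settings, and fewer lines.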

Additional observations from a re-analysis of the deposited data

How the results depend on the processing

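The count of transporter windows at or past 0.2 and the count of transporters in a called segment stayed at 0 under each setting run. No value past the threshold at the settings of the results above changed sign. Values that passed no test at those settings changed sign in places. By own probes these included Abcg2 (0.041, against -0.099 under normexp and -0.044 under loess) and Abcb1a (0.021, against -0.057 under normexp). The Abcc4 window (0.050) passed above 0 under normexp (0.061, limma adjusted p = 0.0299) and was -0.0058 with windows of 1 Mb. The counts past limma's adjusted threshold were less stable. For own probes, 2 transporters became 1 under normexp, loess and correction for local gene number, where 23.7%, 21.9% and 22.8% of all genes passed. They became 0 with lines 2 and 3 averaged as 1 animal and with at least 1 probe per gene. The same held with at least 10 probes, where fewer transporters are tested. Leaving out 1 line gave 0 to 4, with 4 without line 1, where 34.1% of all genes passed. Over all genes, the 2285 became 693 with lines 2 and 3 averaged, 4766 of 21138 with at least 1 probe and 763 of 2785 with at least 10 probes (48.1% of them above 0), and 1056 to 3222 with 1 line left out. For windows, the 2 became 1 in the value table, under loess and after gene number correction (39.2%, 44.2% and 28.1% of all windows). They became 4 under normexp (47.8% of all windows) and 3 with windows of 1 Mb (44.7%). The count was 0 with lines 2 and 3 averaged, with medians and with windows of 250 kb (33.2%, 36.7% and 43.0%). It was 0 to 2 with 1 line left out. Over all windows, the 9296 became 5943 after gene number correction and 5500 to 8286 with 1 line left out. For focal differences, the 1 became 0 with lines 2 and 3 averaged and 0 to 2 with 1 line left out, and the 2261 over all genes became 1396 in the value table, 1427 under loess and 948 to 3836 with 1 line left out. Abcc5 stayed below 0 in each fit of its own probes. Among the values of single transporters, 282 kept their side of the threshold, 30 lost a call, 9 gained one and 10 moved without a call. The cause of these changes was not tested.

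Correction for probe GC was chosen after seeing the data. Without line 1, the lines that remain share an animal number. No paired analysis was possible because the 3 lines form 1 group with no second group to pair. Precision is limited by having 3 arrays, by probes about 10878 bp apart and by the lack of a repeat array for any line. No detection limit was measured for gains shorter than a gene or present in part of the cells.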
